A study of Mus musculus with 48 samples.

Results

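The comparison asked where in the liver transcriptome the response to a high-fat diet differed between mice lacking PPARα in hepatocytes and mice lacking it in the whole body. It used 32 of the 48 liver arrays, 8 in each of 4 groups: PPARaLKO on CTRL, PPARaLKO on HFD, PPARaKO on CTRL and PPARaKO on HFD. PPARaLKO mice carried floxed *Ppara* alleles and Cre recombinase under the albumin promoter, which acts in hepatocytes, so that the other cells of the liver and all other organs kept the gene. PPARaKO mice carried the deleted allele in every cell from the germline. All were males on a C57BL/6J background, 20 weeks old, and kept at thermoneutrality. Per the labels they had eaten either a control diet (CTRL) or a diet with 60% of fat (HFD) for 12 weeks, whereas the text of the study gives a shorter feeding time. The 16 remaining arrays were of wild-type males (PPARaWT) on the same diets, bought from a supplier rather than bred as littermates, and served here as a side reading. For each probe the difference of diet responses was calculated as HFD minus CTRL in PPARaLKO, minus HFD minus CTRL in PPARaKO, in log2 units. A positive value means that the response was higher in PPARaLKO mice, which can come from a larger rise or from a smaller fall.

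PPARα is a nuclear receptor that binds fatty acids and their derivatives and switches on genes of fatty acid uptake, mitochondrial and peroxisomal oxidation and ketogenesis. In the liver most of it lies in hepatocytes, but it also acts in muscle, heart, kidney and brown fat, organs that burn fatty acids. A hepatocyte deletion removes the receptor's direct action on hepatocyte genes, whereas a whole-body deletion also removes its action in the other organs. Both genotypes lack the receptor in hepatocytes, and the comparison is between 2 kinds of receptor loss rather than between loss and presence.

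*Ppara* itself was read by 2 probes, which the files do not place relative to the deleted exon, so their signal checks neither deletion. At the brighter probe (chr15:85632110-85632169, mm9) the log2 signal ran from 13.26 to 14.28 (median 14.11) in PPARaLKO CTRL mice and from 14.11 to 14.54 (median 14.24) on HFD. In PPARaKO mice it ran from 13.53 to 14.09 (median 13.92) on CTRL and from 13.83 to 14.27 (median 14.03) on HFD. All 4 ranges lay close together, and the difference of responses was 0.01 (95% confidence interval −0.24 to 0.25). The dimmer probe gave −0.40 (adjusted p = 0.0440, limma), a call that was lost without array weights (adjusted p = 0.538).

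Each array held 59305 non-control spots for 56605 probes, of which 33323 passed the filter on dim signals. The 10 hepatocyte markers examined (*Alb*, *Ttr*, *Apoa1* and others) had a mean log2 signal between 16.7 and 17.3 in every mouse of the 4 groups. None of them passed the test for a different diet response. Their median difference was −0.06, and 0.18 with the processed signal scaled to its 75th percentile. Array weights, which limma sets low for arrays that scatter far from their group, ran from 0.189 to 2.53 over the series. The lowest weight belonged to PPARaLKO CTRL replicate 1. The labels list the mice as separate samples, so the p-values measure the spread between mice.

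The diet response differed between the genotypes at 1139 of 33323 probes (3.42%), with 432 higher in PPARaLKO (1.30%) and 707 lower (2.12%), at a Benjamini-Hochberg adjusted p no higher than 0.05 in limma. Without array weights the number was 110 (0.330%), of which 32 were higher (0.0960%) and 78 lower (0.234%). Each of these 110 probes was also called with weights, and each was still called with weights when PPARaLKO CTRL replicate 1 was left out. The number called with weights moved by over 1.5 times when PPARaLKO HFD replicate 6 (550), PPARaLKO CTRL replicate 8 (722), PPARaKO CTRL replicate 6 (741), PPARaKO HFD replicate 8 (747) or PPARaKO HFD replicate 7 (752) was left out. The 110 probes covered 61 gene names, and 42 of the probes had no gene name in the sources used here. The difference reached at least 1 log2 unit, a doubling, at 33 of the 110. Among these 110 probes, the 2 responses pointed in opposite directions at 84 (76.4%), against 31.9% of all tested probes. That share was partly set by the selection, since opposite responses give large differences. The genotypes differed on CTRL alone at 36 of the 110, on HFD alone at 39 and on both diets at 35.

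**Figure D1:**
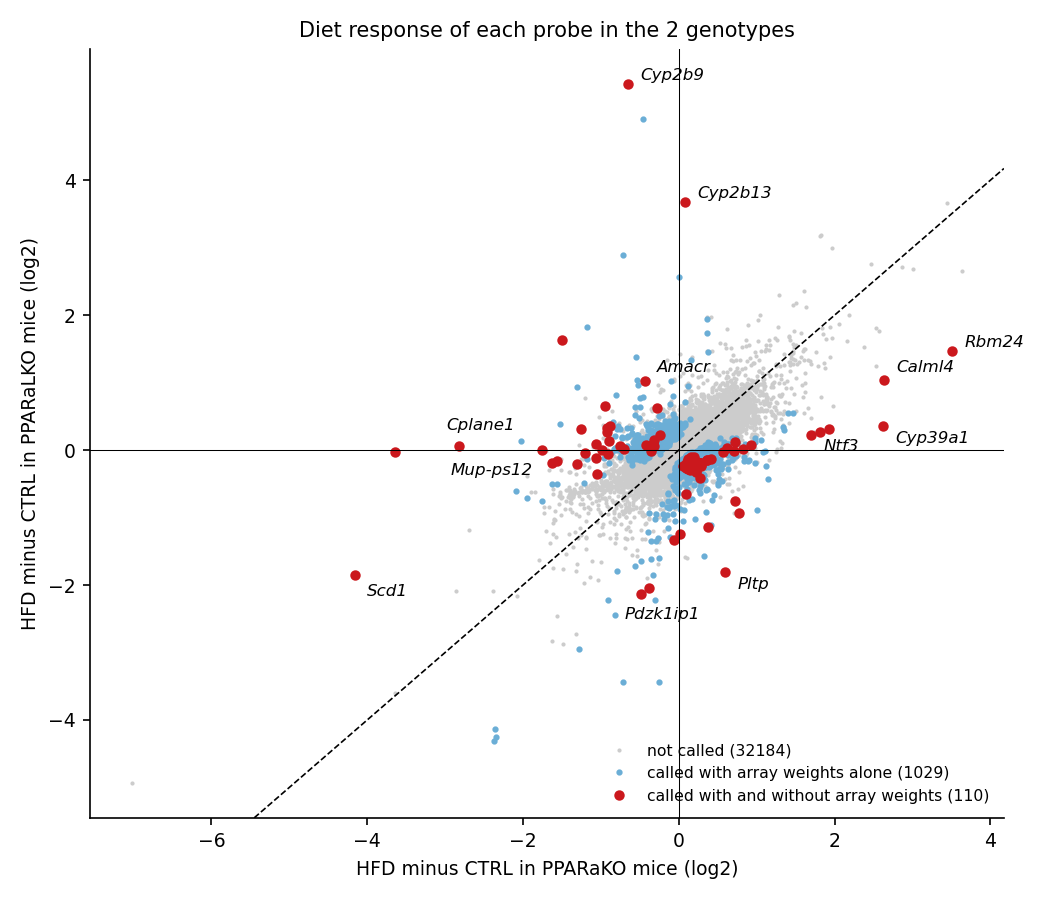
Diet response (HFD minus CTRL, log2) in PPARaKO mice on the x axis against that in PPARaLKO mice on the y axis, one point per tested probe, 8 mice in each of the 4 groups. Grey points are the 32184 probes not called, and the colours mark the 1029 probes called with array weights alone and the 110 called with and without them, which lie off the diagonal of equal responses.

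Genes of the *Cyp2b* cluster, which encode cytochromes P450 that oxidise drugs and lipids and answer to the nuclear receptor CAR, had the largest positive differences among genes read by their brightest probe and called in both fits. *Cyp2b9* and *Cyp2b13*, which lie close together on chromosome 7, are known for higher expression in female than in male mouse liver. Their RefSeq promoter windows of 300 bases around the start of the gene (GRCm38.p6, plus strand) are shown because they are nearly identical and both genes were called. The capitals mark the positions at which they differ, T48C and C104T, counted from the 5′ end with the *Cyp2b9* base first. The windows lie at chr7:26173159-26173458 for *Cyp2b9* and chr7:26061245-26061544 for *Cyp2b13*.
Cyp2b9: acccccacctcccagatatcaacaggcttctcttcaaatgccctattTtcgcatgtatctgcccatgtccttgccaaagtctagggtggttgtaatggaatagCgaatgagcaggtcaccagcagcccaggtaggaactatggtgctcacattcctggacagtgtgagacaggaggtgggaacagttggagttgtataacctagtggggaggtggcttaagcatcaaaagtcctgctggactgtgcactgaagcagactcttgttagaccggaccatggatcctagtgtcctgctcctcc
Cyp2b13: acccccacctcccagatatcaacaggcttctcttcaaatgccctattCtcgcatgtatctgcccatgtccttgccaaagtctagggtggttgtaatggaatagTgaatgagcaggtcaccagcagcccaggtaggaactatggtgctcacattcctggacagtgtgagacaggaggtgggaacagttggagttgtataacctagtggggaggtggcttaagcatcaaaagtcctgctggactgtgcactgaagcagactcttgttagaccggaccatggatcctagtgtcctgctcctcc
The windows were identical at 298 of 300 bases (99.3%), and each matched that of *Cyp2b10* at 230 of 314 aligned columns (73.2%). AGGTCA, the core element bound by many nuclear receptors, occurred on either strand once in both of them, at position 113, and in 4335 of the 27025 promoters searched (16%). It was not found in the *Cyp2b10* window. TTCNNNGAA, the motif of STAT5, was found in none of these windows and in 8.47% of all promoters. A match of letters is no evidence of binding.

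*Cyp2b9* (probe at chr7:26995607-26995666, mm9) ran from 5.28 to 9.32 on the log2 scale (median 7.05) in PPARaLKO CTRL mice and from 10.96 to 13.20 (median 12.46) in PPARaLKO HFD mice. In PPARaKO mice it ran from 4.98 to 6.93 (median 5.88) on CTRL and from 4.91 to 5.60 (median 5.25) on HFD. Every PPARaLKO mouse on HFD thus lay above every mouse of the other 3 groups. The response was 5.43 in PPARaLKO and −0.66 in PPARaKO (adjusted p = 0.475), and the difference of responses was 6.08 (SE 0.86, adjusted p = 5.07e-05, n = 8 per group, limma). The *Cyp2b9* probe was well above background in 3 of 8 PPARaKO CTRL and 1 of 8 PPARaKO HFD mice, so the PPARaKO response lies at the edge of detection and 6.08 is not an exact size. In bulk liver, fewer cells of a type and less RNA per cell cannot be told apart.

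*Cyp2b13* showed the same split. In PPARaLKO mice its log2 signal ran from 4.76 to 5.71 (median 5.15) on CTRL and from 6.73 to 9.62 (median 8.68) on HFD, without overlap. The probe was not well above background in any PPARaKO mouse on either diet, with readings from 4.76 to 5.50 over both diets. The mean of the PPARaLKO HFD mice therefore lay at least 8.69-fold above that of the PPARaKO HFD mice. For this bound the dim group was set at the lowest signal that counts as well above background on its arrays. The fitted difference of responses was 3.60 (SE 0.47, adjusted p = 1.27e-05). In PPARaLKO CTRL mice 1 of 8 readings was well above background, so 3.60 is not an exact size. Under the 16 alternatives the difference ran from 2.86 to 6.09.

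*Cyp2b10*, the classical CAR target, was looked at after its values were seen. Its log2 signal ran from 5.40 to 10.95 (median 7.13) on CTRL and from 10.45 to 12.68 (median 11.93) on HFD in PPARaLKO mice. PPARaKO mice stayed between 5.53 and 7.67 on CTRL and between 5.51 and 6.41 on HFD. The difference of responses was 5.37 (SE 0.83, adjusted p = 0.000118), but without array weights the adjusted p was 0.0555. The 3 probes share runs of at most 10 bases, which does not show that each probe reads its own gene alone.

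Wild-type mice on HFD were divided for these genes, and for others. PPARaWT HFD replicates 1 and 2 read 5.35 and 4.84 for *Cyp2b9*, and the other replicates 9.44 or more. The mean of the PPARα target genes described below, relative to PPARaKO CTRL mice, was 0.40 and 0.19 in these replicates and 1.40 to 1.68 in the others. Replicates 1 and 2 had array weights of 0.54 and 0.34, and both entered the PPARaWT responses. *Cyp2b9* ran from 4.84 to 14.80 (median 10.46) in PPARaWT HFD mice, a range that covers both the PPARaKO and the PPARaLKO values, and the PPARaWT response was 4.77. *Cyp2b13* responded by 0.72 in PPARaWT mice (adjusted p = 0.198), of which 1 of 8 on CTRL and 3 of 8 on HFD had a reading well above background. *Cyp2b10* responded by 4.18.

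**Figure D2:**
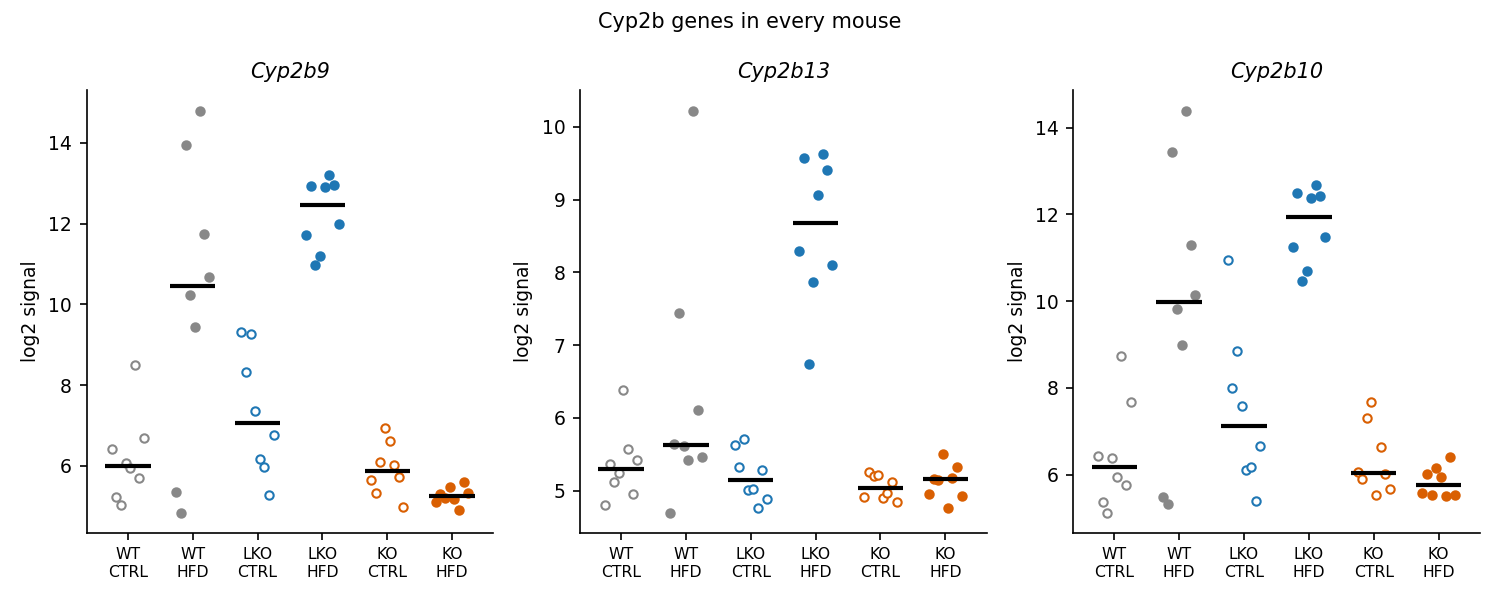
Log2 signal of *Cyp2b9*, *Cyp2b13* and *Cyp2b10* on the y axis in each mouse of the 6 groups on the x axis, with CTRL as open and HFD as filled points and a black line at the median of 8 mice. For *Cyp2b9* the PPARaLKO HFD mice lie between 10.96 and 13.20 and the PPARaKO HFD mice between 4.91 and 5.60, whereas PPARaWT HFD mice spread from 4.84 to 14.80.

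Major urinary proteins are small pheromone carriers that male mouse liver makes in large amounts under growth hormone. Of the 22 probes for 14 genes of the family, 5 (22.7%) had a higher response in PPARaLKO, against 1.30% of all probes, and 0 a lower one. The family was picked after its values were seen, and the median difference over its probes was 0.25. The median was 0.55 without array weights and 0.13 within wash batch 1, where 0 probes of the family were called. At *Mup-ps12* the log2 signal ran from 15.93 to 16.58 (median 16.10) on CTRL and from 15.77 to 16.67 (median 16.22) on HFD in PPARaLKO mice. In PPARaKO mice it ran from 13.65 to 14.74 (median 14.15) on CTRL and from 11.66 to 13.30 (median 12.55) on HFD. The diets thus overlapped in PPARaLKO and were apart in PPARaKO, and the genotypes were apart on both diets. The difference of responses was 1.75 (SE 0.22, adjusted p = 1.27e-05).

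*Mup6* had the same pattern, with responses of −0.19 in PPARaLKO (adjusted p = 0.433) and −1.62 in PPARaKO and a difference of 1.44 (SE 0.23, adjusted p = 0.000162). *Mup20*, which encodes darcin, the male pheromone, ran in PPARaKO mice from 17.49 to 18.23 (median 17.65) on CTRL and from 15.99 to 17.36 (median 16.68) on HFD. It differed by 0.98 (SE 0.16, adjusted p = 0.000263). *Mup20* fell by 0.98 in PPARaKO and responded by −0.01 in PPARaLKO. Its signal in PPARaLKO mice stood at 18.64 to 18.74 on both diets, close to the highest normalized value of any probe, 19.09, although no spot was marked as saturated. The PPARaLKO response and the difference are therefore not exact sizes. A second bright probe of *Mup20* differed by 0.28 and was not called (adjusted p = 0.187). The dimmer second probes of *Mup6* (0.29, adjusted p = 0.837) and *Mup-ps12* (0.29, adjusted p = 0.693) were not called either. *Mup-ps16* differed by 0.85 (SE 0.13, adjusted p = 0.000118). A dimmer probe of *Mup3* differed by 0.71 with array weights (adjusted p = 0.00664) and was not called without them (adjusted p = 0.0651).

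Probes of this family can bind RNA of more than one member, and the stretch that the *Mup20* and *Mup-ps16* probes share is shown for that reason. The capitals mark the common run of 24 bases within 30 bases of each probe, bases 14 to 43 of the *Mup20* probe and bases 9 to 38 of the *Mup-ps16* probe.
Mup20: AAGTTCTGTGATCTGCTTTCCATCgtgtct
Mup-ps16: AAGTTCTGTGATCTGCTTTCCATCatgtct
These 2 readings may therefore not be independent, which was not tested. The probes of *Mup-ps12* and *Mup6* share runs of 5 bases with each other and of at most 13 with these. A short run does not show that readings are separate, since probes can lie on different parts of the same RNA.

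*Scd1* encodes stearoyl-CoA desaturase, which makes monounsaturated fatty acids and is one of the most abundant lipogenic transcripts of the liver. It lies on chromosome 19 (probe at chr19:44469387-44469446, mm9). In PPARaLKO mice its log2 signal ran from 16.89 to 17.89 (median 17.19) on CTRL and from 14.27 to 16.29 (median 15.72) on HFD. In PPARaKO mice it ran from 14.24 to 17.03 (median 15.68) on CTRL and from 9.87 to 13.17 (median 11.43) on HFD. *Scd1* fell on HFD in both genotypes, without overlap between the diets in either, namely it fell by 1.85 in PPARaLKO and fell by 4.16 in PPARaKO. The difference of responses was 2.31 (SE 0.53, adjusted p = 0.00871), and a much dimmer second probe of *Scd1* gave 0.31 (adjusted p = 0.765).

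*Pltp*, the phospholipid transfer protein that remodels lipoproteins, moved the other way (probe at chr2:164665022-164665081, mm9). Its log2 signal ran from 9.62 to 12.02 (median 11.08) on CTRL and from 9.19 to 9.91 (median 9.58) on HFD in PPARaLKO mice. PPARaKO mice ran from 9.06 to 9.60 (median 9.24) on CTRL and around a median of 9.89 on HFD, with 9.62 as the lowest. It fell by 1.81 in PPARaLKO and rose by 0.60 in PPARaKO (adjusted p = 0.0435), and the difference was −2.41 (SE 0.31, adjusted p = 1.27e-05). On HFD the genotypes overlapped, so that the difference came with a genotype gap of 2.04 on CTRL.

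*Cyp39a1*, an oxysterol 7α-hydroxylase of bile acid synthesis, rose in PPARaKO mice from 7.10 to 8.13 (median 7.73) on CTRL to between 8.84 and 11.39 (median 10.25) on HFD, a response of 2.62. PPARaLKO mice stood between 10.36 and 11.36 (median 10.84) on CTRL and between 9.73 and 11.54 (median 11.22) on HFD, a response of 0.36 (adjusted p = 0.366). The diets overlapped in PPARaLKO and were apart in PPARaKO. The difference was −2.26 (SE 0.39, adjusted p = 0.000435). Wild-type mice fell by 0.93 (adjusted p = 0.0350).

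*G6pdx*, which supplies NADPH for fatty acid synthesis through the pentose phosphate pathway, ran around a median of 10.12 on CTRL, with 9.82 as the lowest, and from 9.14 to 9.86 (median 9.49) on HFD in PPARaLKO mice. PPARaKO mice ran from 8.76 to 9.91 (median 9.29) on CTRL and from 9.52 to 10.18 (median 10.01) on HFD. *G6pdx* fell by 0.76 in PPARaLKO and rose by 0.73 in PPARaKO, a difference of −1.48 (SE 0.23, adjusted p = 0.000121), although the ranges of the groups overlapped. *Elovl2*, which elongates polyunsaturated fatty acids, had medians of 14.22 and 13.57 in PPARaLKO and of 13.39 and 13.52 in PPARaKO. Its difference was −0.75 (SE 0.13, adjusted p = 0.000526), with the diets apart in PPARaLKO. *Amacr*, the racemase that acts on bile acid precursors and branched fatty acids, rose by 1.03 in PPARaLKO, from a median of 13.40 to 14.71. It responded by −0.44 in PPARaKO (adjusted p = 0.0999), where the medians were 14.70 and 14.42, and the difference was 1.47 (SE 0.27, adjusted p = 0.00108).

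**Figure D3:**
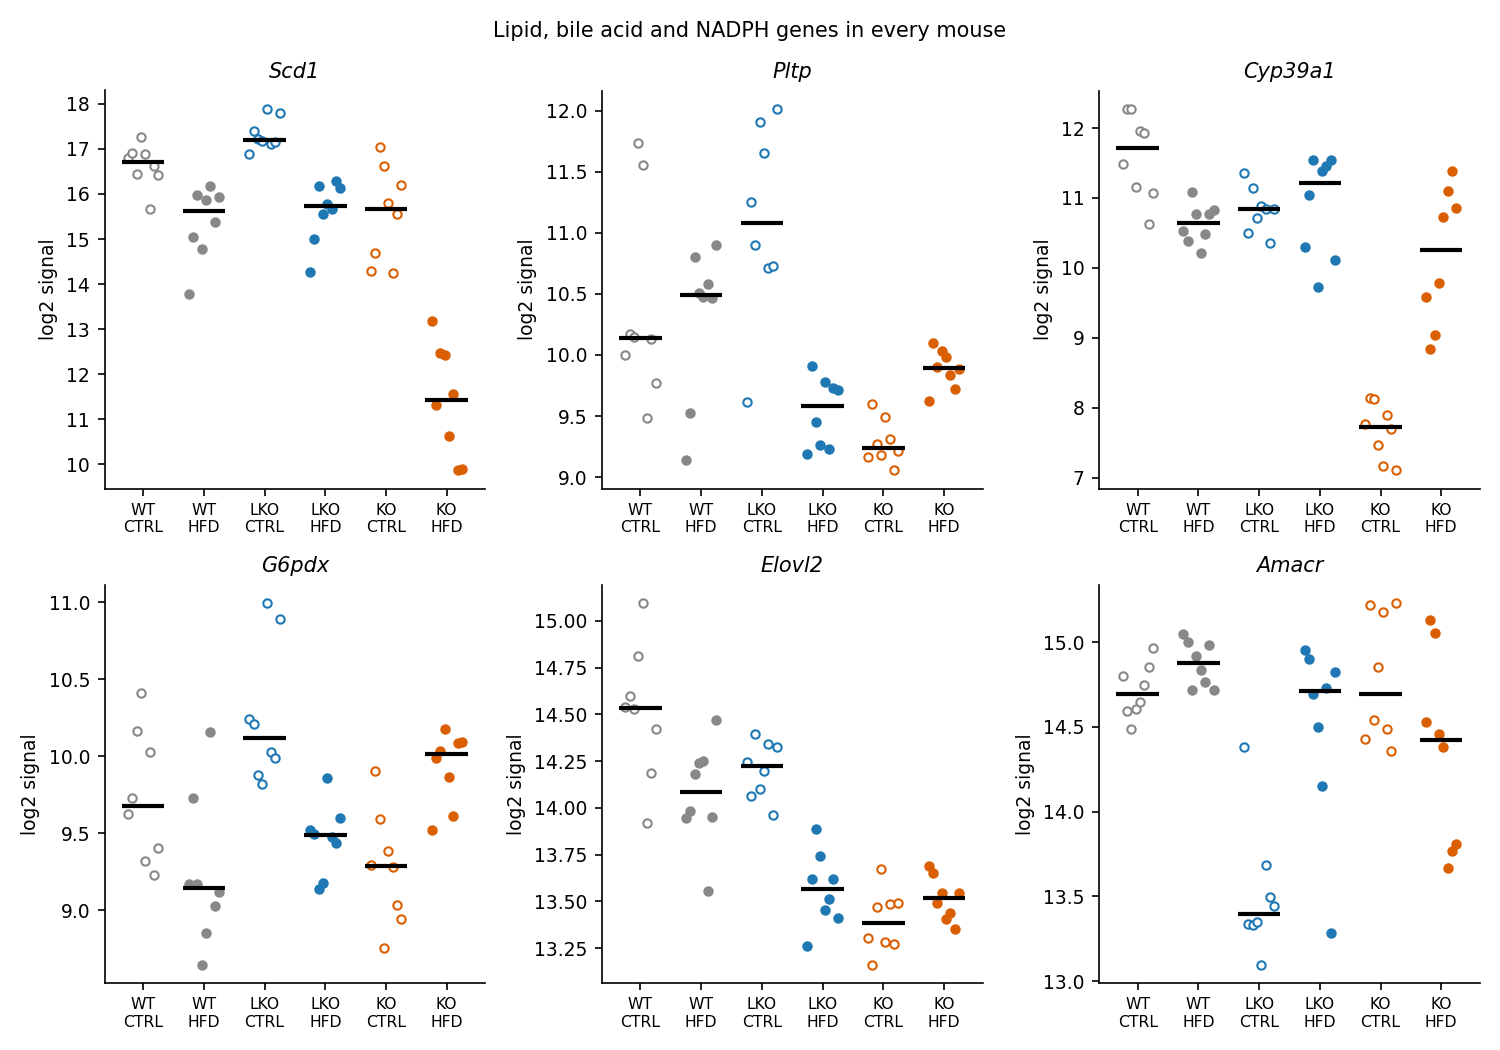
Log2 signal on the y axis of *Scd1*, *Pltp*, *Cyp39a1*, *G6pdx*, *Elovl2* and *Amacr* in each mouse of the 6 groups, with CTRL as open and HFD as filled points and a black line at the median of 8 mice. *Scd1* in PPARaKO HFD mice (9.87 to 13.17) lies below all the other groups, and *Pltp* and *Elovl2* differ between the genotypes on CTRL and overlap on HFD.

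Several further genes were higher on CTRL in PPARaKO than in PPARaLKO mice and moved towards the PPARaLKO level on HFD. *Cplane1*, which takes part in building cilia, ran from 10.25 to 13.67 (median 11.83) on CTRL and from 8.63 to 11.61 (median 9.29) on HFD in PPARaKO mice. PPARaLKO mice stayed between 7.76 and 8.82 on CTRL and between 7.70 and 8.46 on HFD, below every PPARaKO mouse of the same diet. The difference was 2.88 (SE 0.45, adjusted p = 0.000135). Only 2 of its 4 probes were called, and the other two differed by 0.04 and 0.18.

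*Aen*, a nuclease induced by p53, ran in PPARaKO mice from 12.44 to 13.60 on CTRL and from 11.94 to 12.69 (median 12.16) on HFD. In PPARaLKO mice *Aen* ran from 11.40 to 12.42 (median 11.64) on CTRL and from 11.54 to 12.31 (median 11.94) on HFD. The genotypes were apart on CTRL and overlapped on HFD. *Aen* fell by 0.92 in PPARaKO, responded by 0.32 in PPARaLKO (adjusted p = 0.0529) and differed by 1.25 (SE 0.18, adjusted p = 5.07e-05), with 4 of its 5 probes called with array weights and 2 of the 5 in both fits. *Ddias*, which counters cell death after DNA damage, ran in PPARaKO mice from 6.69 to 8.52 (median 7.55) on CTRL and from 5.77 to 7.15 (median 6.43) on HFD, against medians of 5.82 and 6.14 in PPARaLKO mice. The genotypes were again apart on CTRL alone. Its responses differed by 1.57 (SE 0.27, adjusted p = 0.000428), with 5 of 8 CTRL and 6 of 8 HFD readings well above background in PPARaLKO.

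*Ccm2l*, a relative of the endothelial gene *Ccm2*, ran in PPARaKO mice from 11.45 to 12.39 (median 11.96) on CTRL and from 10.26 to 11.35 (median 10.92) on HFD, without overlap. PPARaLKO mice had medians of 10.66 and 10.57. *Ccm2l* fell by 1.07 in PPARaKO and differed by 0.95 (SE 0.20, adjusted p = 0.00382). The transcript *4933404I11Rik* was not well above background in any PPARaLKO or PPARaWT mouse, and was so in 7 of 8 PPARaKO CTRL and 6 of 8 PPARaKO HFD mice. By group means, PPARaKO mice lay at least 2.86-fold above PPARaLKO mice on CTRL and at least 1.31-fold on HFD. The fitted difference of *4933404I11Rik* was 1.16 (SE 0.17, adjusted p = 5.07e-05), which is not an exact size since the PPARaLKO response is between readings at background. *Aen*, *Ddias* and *4933404I11Rik* have their probes on chromosome 7, and *Cplane1* and *Amacr* on chromosome 15, which also holds *Ppara*. By chromosome, the share of tested probes called in both fits ran from 0.0488% on chromosome 5 to 0.691% on chromosome 7 (17 of 2461), and was 0.469% on chromosome 15 (6 of 1280).

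Another group rose on HFD in PPARaKO mice and less, or not detectably, in PPARaLKO mice. *Rbm24*, an RNA-binding regulator of splicing, ran from 4.99 to 6.05 (median 5.05) on CTRL and from 8.16 to 9.08 (median 8.70) on HFD in PPARaKO mice. In PPARaLKO mice it ran from 4.95 to 7.42 (median 5.14) on CTRL and from 5.03 to 7.30 (median 6.62) on HFD. Every PPARaKO HFD mouse lay above every PPARaLKO mouse. *Rbm24* rose by 1.47 in PPARaLKO and by 3.51 in PPARaKO, and the difference was −2.04 (SE 0.30, adjusted p = 5.07e-05). In both genotypes only 1 of 8 CTRL mice had a reading well above background, so both rises start from the edge of detection and their sizes are not exact.

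*Ntf3*, the growth factor neurotrophin 3, ran from 6.21 to 7.04 (median 6.70) on CTRL and from 7.83 to 8.92 (median 8.23) on HFD in PPARaKO mice. PPARaLKO mice ran from 6.72 to 7.56 (median 6.91) on CTRL and from 6.60 to 7.35 (median 7.19) on HFD. It rose by 1.69 in PPARaKO against 0.23 in PPARaLKO (adjusted p = 0.334), a difference of −1.47 (SE 0.24, adjusted p = 0.000176). *Calml4*, a calmodulin-like protein, ran in PPARaKO mice from 7.54 to 9.21 (median 8.02) on CTRL and from 9.72 to 11.74 (median 10.61) on HFD, and in PPARaLKO mice from 7.04 to 9.02 (median 7.38) on CTRL and from 7.73 to 9.64 (median 8.14) on HFD. The genotypes overlapped on CTRL and were apart on HFD. *Calml4* rose by 2.63 in PPARaKO and by 1.04 in PPARaLKO, a difference of −1.59 (SE 0.31, adjusted p = 0.00164). *Ddah1*, which breaks down an inhibitor of nitric oxide synthase, rose by 1.82 in PPARaKO against 0.27 in PPARaLKO (adjusted p = 0.283). Its difference was −1.55 (SE 0.25, adjusted p = 0.000176), and both of its probes were called. *Ddah1* started lower in PPARaKO, with CTRL medians of 9.62 against 11.68 in PPARaLKO, and the genotypes overlapped on HFD.

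*Gbp2b*, an interferon-inducible GTPase, moved in opposite directions. In PPARaLKO mice it ran from 5.12 to 7.03 (median 6.78) on CTRL and from 5.42 to 6.10 (median 5.92) on HFD, and in PPARaKO mice from 7.19 to 8.89 (median 7.76) on CTRL and from 8.13 to 9.15 (median 8.66) on HFD. *Gbp2b* fell by 0.93 in PPARaLKO, where 5 of 8 HFD readings were well above background, and rose by 0.77 in PPARaKO. The difference was −1.70 (SE 0.24, adjusted p = 5.07e-05), and PPARaKO mice lay above PPARaLKO mice on both diets without overlap.

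*Pdzk1ip1*, *Prr36*, *Rims4* and *Dntt* fell on HFD in PPARaLKO mice. *Pdzk1ip1*, a small membrane protein, fell by 2.13, with the diets apart, from 11.31 to 12.73 (median 11.57) on CTRL to between 9.18 and 10.30 (median 9.60) on HFD. PPARaKO mice responded by −0.48 (adjusted p = 0.0979) from a CTRL median of 9.55, and the difference was −1.65 (SE 0.30, adjusted p = 0.000885), with both probes called. *Prr36*, a proline-rich protein, ran in PPARaLKO mice from 7.42 to 8.32 (median 7.87) on CTRL and from 6.34 to 7.02 (median 6.64) on HFD, without overlap, whereas the PPARaKO medians were 6.31 and 6.24. It fell by 1.24 in PPARaLKO and responded by 0.01 in PPARaKO, a difference of −1.25 (SE 0.21, adjusted p = 0.000208).

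*Rims4*, a regulator of vesicle release, ran in PPARaLKO mice from 5.91 to 8.55 (median 6.56) on CTRL and from 5.16 to 5.68 (median 5.41) on HFD, again without overlap. *Rims4* fell by 1.33 in PPARaLKO and differed by −1.27 (SE 0.26, adjusted p = 0.00255). The *Rims4* probe was well above background in 0 of 8 PPARaKO CTRL mice and in 3 of 8 HFD mice of either genotype, so these sizes are not exact. *Dntt*, the terminal transferase of developing lymphocytes, ran in PPARaLKO mice from 10.52 to 11.71 (median 11.01) on CTRL and from 8.99 to 10.69 (median 9.75) on HFD. In PPARaKO mice *Dntt* ran from 8.64 to 9.99 (median 9.28) on CTRL and from 9.33 to 10.47 (median 9.66) on HFD, so that the genotypes were apart on CTRL and overlapped on HFD. It fell by 1.13 in PPARaLKO and differed by −1.52 (SE 0.31, adjusted p = 0.00327). Under the 16 alternatives this difference ran from −1.97 to −0.80.

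**Figure D4:**
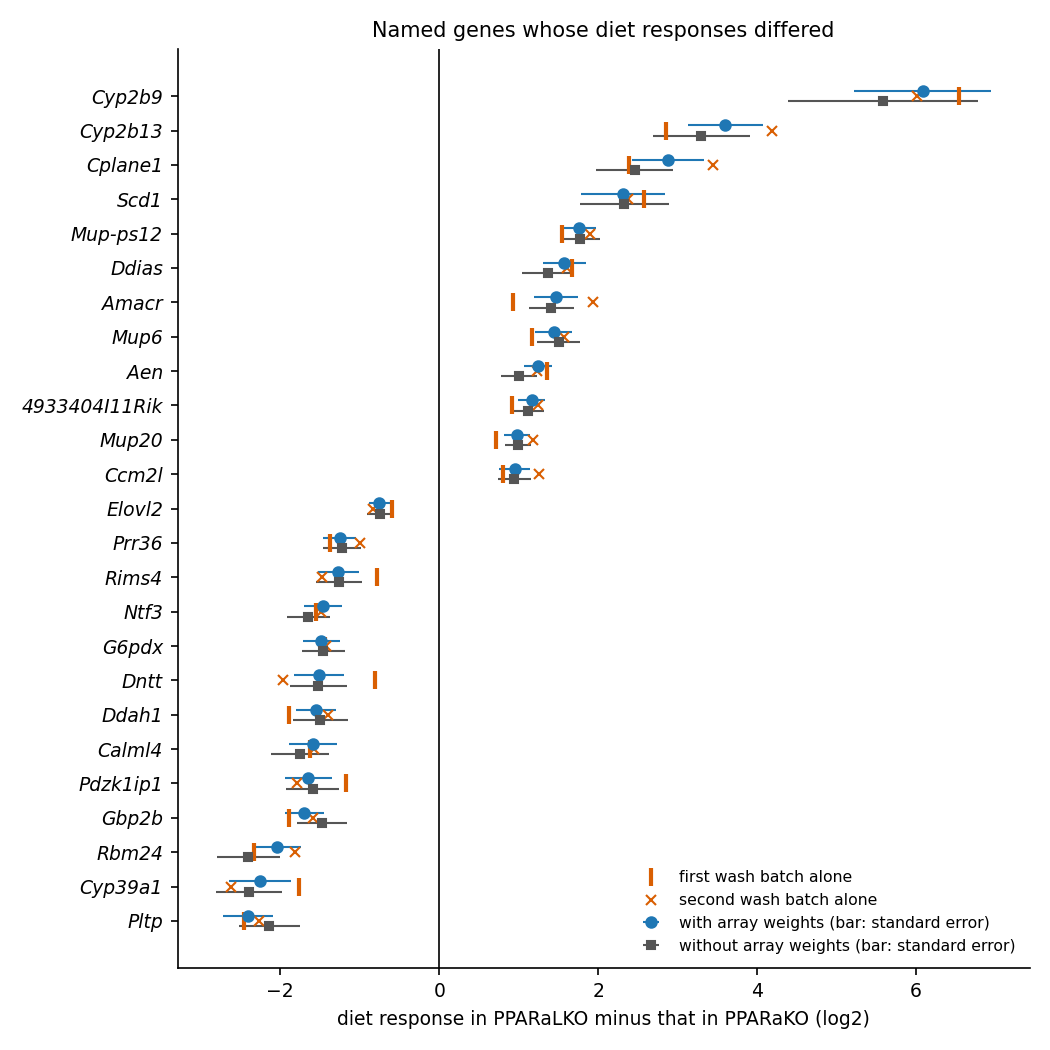
Difference of diet responses (log2, PPARaLKO minus PPARaKO) on the x axis for the 25 named genes that were called, with array weights and without them (bars, SE), and within wash batch 1 and wash batch 2. With array weights the values run from −2.41 at *Pltp* to 6.08 at *Cyp2b9*, and each gene keeps its sign without weights and in both wash batches.

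Some genes were called in both fits at a probe that was not their brightest, and so fell outside the rule by which genes were named. The widest gap between probes was at *Dpys*, a dihydropyrimidinase of pyrimidine breakdown, with 3.14 (adjusted p = 0.000566) at the called probe and −0.52 (adjusted p = 0.0208) at the brightest one, which was not called without array weights (adjusted p = 0.333). At *Aox3*, an aldehyde oxidase, the values were 1.60 (adjusted p = 5.07e-05) and 1.20 (adjusted p = 0.000887), the latter not called without array weights. *Asah1*, the acid ceramidase of lysosomes, gave −0.73 (adjusted p = 0.000306) and −0.37 (adjusted p = 0.0845). *Cplx2*, a complexin of vesicle fusion, gave 1.03 (adjusted p = 0.000114) and 0.30 (adjusted p = 0.0502).

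Of the probes that stood for a gene by being its brightest, 864 of 22009 were called (3.93%), 303 higher (1.38%) and 561 lower (2.55%), and 86 in both fits (0.391%). The lists of genes below are read against these shares and against a median difference of −0.01 over all of them. Of the 44 list and marker genes called with array weights, 7 were also called without them, namely *Cyp2b9*, *Cyp2b13*, *Mup20*, *Scd1*, *Elovl2*, *Cyp39a1* and *G6pdx*. The calls on the other 37 were lost without weights. With single arrays left out, lists with 1 or 2 calls had between 0 and 3, apart from the droplet and cholangiocyte lists, which had 1 throughout.

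Cholesterol biosynthesis had 8 of its 24 tested genes called (33.3%), all of them lower in PPARaLKO. The called genes included *Pmvk*, *Mvd*, *Fdft1*, *Sqle*, *Cyp51*, *Nsdhl* and *Dhcr7*, which catalyse steps from mevalonate to cholesterol. *Sqle* fell from a median of 12.71 to 11.36 in PPARaLKO, by 1.56, and responded by 0.32 in PPARaKO, with medians of 11.40 and 11.45. Its difference was −1.89 (SE 0.45, adjusted p = 0.0119). The median response over the list was −0.93 in PPARaLKO, −0.24 in PPARaKO and 0.47 in PPARaWT, and 23 of the 24 differences were below 0 (median −0.71). None of the 24 was called without array weights or within either wash batch, where the median differences were −0.38 and −0.82. The count of 8 also moved by over 1.5 times when any one of 12 arrays was left out. It was 2 without PPARaLKO HFD replicate 6, 3 without PPARaKO CTRL replicate 6 or PPARaLKO CTRL replicate 8, and 4 without PPARaKO CTRL replicate 4 or PPARaLKO CTRL replicate 2. It was 5 without PPARaKO CTRL replicate 1 or 7, PPARaKO HFD replicate 1, 2 or 8, PPARaLKO CTRL replicate 5 or PPARaLKO HFD replicate 1.

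Interferon-stimulated genes had 8 of 30 called (26.7%), all lower in PPARaLKO. They were *Ifit2*, *Ifit3*, *Oas1a* and *Ifi44*, which are part of the antiviral response, the transcription factor *Irf7*, the GTPase *Gbp3*, and the immunoproteasome subunits *Psmb8* and *Psmb9*. *Ifi44* ran from 9.09 to 9.86 (median 9.27) on CTRL and from 8.37 to 9.31 (median 8.87) on HFD in PPARaLKO mice. In PPARaKO mice it ran from 7.16 to 9.41 (median 7.68) on CTRL and from 8.51 to 9.33 (median 8.75) on HFD. The genotypes overlapped on both diets, and the difference of responses was −1.58 (SE 0.30, adjusted p = 0.00112). Over the list 29 of 30 differences were below 0 (median −0.51), with median responses of −0.18 in PPARaLKO, 0.35 in PPARaKO and −0.00459 in PPARaWT. Without array weights 0 of the 30 were called, and the median was −0.60. Within wash batch 1 and within wash batch 2 the count was also 0. The count was 13 without PPARaKO CTRL replicate 2.

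Markers of blood and immune cells were read beside these genes. None of the 16 macrophage and Kupffer cell markers was called, although 15 of the 16 differences were below 0 (median −0.42). Within wash batch 1 the median was −0.74, and within wash batch 2 it was −0.10 with 10 of the 16 below 0. Their mean log2 signal ran from 10.8 to 11.4 in PPARaLKO CTRL, from 10.7 to 11.8 in PPARaLKO HFD, from 10.5 to 11.3 in PPARaKO CTRL and from 11.1 to 11.9 in PPARaKO HFD mice. Among 10 monocyte and neutrophil markers *Ly6c2* was called (−0.997, adjusted p = 0.0243), and among 15 markers of T, B and NK cells *Cd4* was (−0.73, adjusted p = 0.0195). The part of these cells in the interferon genes was not tested.

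MHC and antigen presentation had 2 of 14 genes called, *H2-K1* and *H2-T23*, both at −0.31. Leukocyte adhesion and migration had 1 of 22, the integrin *Itgal* (−0.54, adjusted p = 0.0493). No gene was called among the 38 of NF-kappa B, TNF and TLR signalling, the 30 chemokines and receptors, the 23 acute-phase proteins, the 23 of collagen and matrix remodelling, the 22 of the cell cycle, the 28 of endoplasmic reticulum stress or the 17 of the circadian clock. The median differences of these lists lay between −0.09 and 0.16 with array weights. Without weights the medians were −0.32 for the cell cycle, −0.23 for NF-kappa B, TNF and TLR signalling and −0.20 for the chemokines, and that of collagen and matrix remodelling turned from 0.16 to −0.12. The collagen median was −0.23 within wash batch 1 and 0.52 within wash batch 2, and the medians of the cell cycle, NF-kappa B and chemokine lists were below 0 in wash batch 1 and above 0 in wash batch 2.

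**Figure D5:**
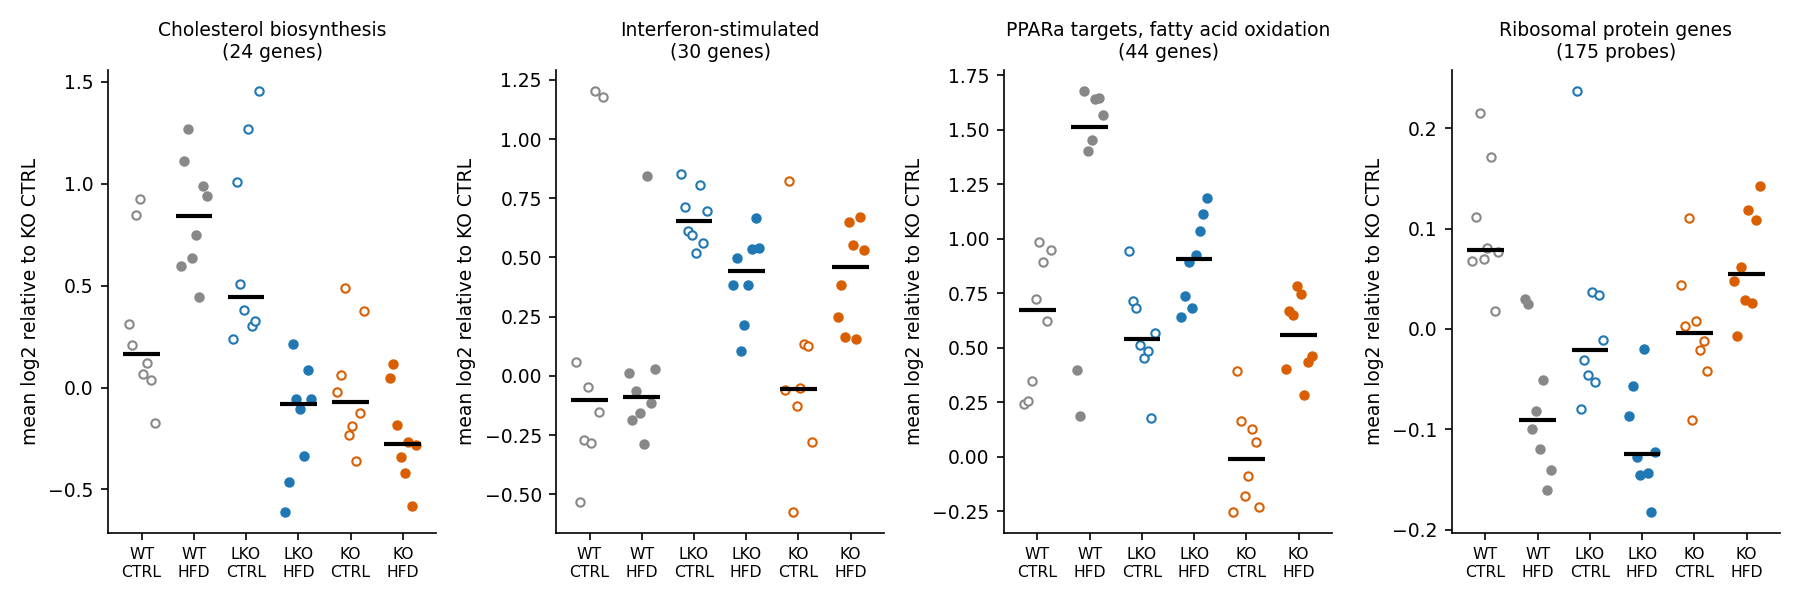
Mean log2 signal of 4 sets of genes in each mouse, relative to the mean of PPARaKO CTRL mice, on the y axis for the 6 groups on the x axis, with a black line at the median of 8 mice. The cholesterol biosynthesis genes stand highest of the deletion groups in PPARaLKO CTRL mice (0.24 to 1.45), and the PPARα target genes have medians of 0.54 on CTRL and 0.91 on HFD in PPARaLKO and of −0.01 and 0.56 in PPARaKO mice.

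Ribosomal protein genes made up a large set of called probes and were looked at after their values were seen. Of 175 probes for 81 genes of cytoplasmic ribosomal proteins, 12 were called in both fits, against 0.330% of all probes. With array weights 70 were lower and 2 higher in PPARaLKO (41.1%), against 2.12% and 1.30% of all probes. The number called was 46 with the processed signal scaled to its 75th percentile, 0 within wash batch 1 and 3 within wash batch 2. The differences were small, with a median of −0.19, and 165 of the 175 were below 0. Median responses were −0.08 in PPARaLKO, 0.10 in PPARaKO and −0.20 in PPARaWT. At the 12 probes called in both fits the differences ran from −0.41 to −0.25. Processed pseudogenes of these genes are many and near-identical, so the probes can share RNA. Of the 42 unnamed probes called in both fits, 37 were lower in PPARaLKO and 7 were described as ribosomal.

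In lipogenesis, desaturation and triglyceride synthesis, 4 of 32 genes were called. *Scd1* was higher, and *Elovl2*, *Scd2* (−1.17, adjusted p = 0.0467) and *Fads1* (−0.54, adjusted p = 0.0391), which desaturate fatty acids too, were lower. *Scd2* and *Fads1* lost the call without array weights (adjusted p = 0.206 and 0.136). The count of 4 was 0 within wash batch 1, where the median difference was 0.15 against −0.12 in the main fit. It was 1 with the 2 arrays of lowest weight left out and no weights. It was 2 with the processed signal scaled to its 75th percentile, with the 32 arrays alone and without a filter on dim probes. It was also 2 without PPARaKO CTRL replicate 1 or 6, PPARaKO HFD replicate 7 or 8, PPARaLKO CTRL replicate 2 or 8 or PPARaLKO HFD replicate 6. Of the genes for lipid droplet coat and lipolysis, *Bscl2*, which encodes the droplet protein seipin, was the 1 called of 18 (0.41, adjusted p = 0.00831).

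Bile acid synthesis and transport had *Cyp39a1* lower and the exporter *Abcc2* higher (0.29, adjusted p = 0.0463) of 29. Glucose and insulin handling had 1 of 22, the liver glycogen phosphorylase *Pygl* (0.45, adjusted p = 0.0213). Coagulation and fibrinolysis had 3 of 24, all lower, namely *F10* (−0.32), *Serpinc1* (−0.17) and *Serpinf2* (−0.36). The coagulation count was 0 without array weights, with the scaled processed signal, without the wash term and without a filter on dim probes, and 1 with slide as the block. It was 0 without PPARaKO HFD replicate 7 or 8, PPARaLKO CTRL replicate 8 or PPARaLKO HFD replicate 6, and 1 without PPARaKO CTRL replicate 1, 4, 6 or 7, PPARaLKO CTRL replicate 4 or 7 or PPARaLKO HFD replicate 7 or 8. Nrf2 targets and metallothioneins had *G6pdx* lower and *Ephx1*, the microsomal epoxide hydrolase, higher (0.89, adjusted p = 0.0208) of 19.

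Xenobiotic metabolism under CAR and PXR had 3 of 20 genes called, the *Cyp2b* genes described above. The count was 5 without PPARaKO CTRL replicate 2. Among 11 female-biased liver genes *Cyp2b9* and *Cyp2b13* were higher and the transporter *Slc22a26* lower (−0.91, adjusted p = 0.0420). Among 19 male-biased genes *Mup20* and the glutathione transferase *Gstp1* (1.09, adjusted p = 0.0191) were higher.

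PPARα target genes of fatty acid oxidation gave no call. None of the 44 passed the test for a different diet response, with or without array weights, and the median difference was −0.02 with and −0.08 without them. Under 6 of the 16 alternatives 1 gene was called, and leaving out single arrays gave at most 2 calls, without PPARaLKO CTRL replicate 5. The median responses were 0.43 in PPARaLKO, 0.44 in PPARaKO and 0.65 in PPARaWT. At an adjusted p above the threshold a gene may still differ, and the intervals were wide for the most variable members. *Cyp4a14*, the ω-hydroxylase of fatty acids, differed by 0.46 (95% interval −0.58 to 1.50). *Vnn1*, a pantetheinase, differed by 0.38 (−0.57 to 1.33). In PPARaKO CTRL mice the *Cyp4a14* probe was well above background in 1 of 8 and the *Vnn1* probe in 3 of 8, so these sizes are not exact. The acyl-CoA thioesterase *Acot2* differed by −0.26 (−1.19 to 0.66) and *Acot3*, of the same kind, by −1.22 (−2.70 to 0.26). *Fitm1*, which partitions fat into droplets, differed by 0.15 (−0.74 to 1.03). Of 16 genes of peroxisome biogenesis *Pex14*, part of the protein import machinery, was called (0.30, adjusted p = 0.0295).

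*Fgf21*, a liver hormone under PPARα and other stress-related control, ran from 4.98 to 9.61 (median 6.24) on CTRL and from 6.14 to 7.97 (median 7.19) on HFD in PPARaLKO mice. In PPARaKO mice it ran from 4.79 to 6.23 (median 5.22) on CTRL and from 7.07 to 8.70 (median 7.79) on HFD. It rose in both genotypes, by 1.25 and by 2.53, and the difference of −1.28 (95% interval −2.33 to −0.22) was not called (adjusted p = 0.183). On CTRL the *Fgf21* probe was well above background in 4 of 8 PPARaLKO and 1 of 8 PPARaKO mice, so these sizes are not exact. *Pparg*, the receptor of adipocytes, differed by −0.25 (−0.88 to 0.38) and *Col1a1*, a fibrillar collagen, by 0.67 (−0.73 to 2.07).

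Markers of the other liver cell types gave few calls. Among 11 genes of lipid-associated macrophages *Fabp5*, a fatty acid-binding protein that other cells also make, was lower (−1.91, adjusted p = 0.0248). Among 8 cholangiocyte markers the keratin *Krt23* was lower (−1.89, adjusted p = 0.00994), and among 5 red blood cell genes *Alas2*, the erythroid enzyme of haem synthesis, was higher (0.60, adjusted p = 0.0420). None of the 12 endothelial, 8 stellate, 5 white adipocyte or 3 pancreas genes was called.

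Wild-type mice gave a reference for the 2 responses, which includes PPARaWT HFD replicates 1 and 2 with the low readings described above. At 97 of the 110 probes called in both fits (88.2%) the PPARaWT response lay nearer to that of PPARaLKO than to that of PPARaKO, against 52.8% of all tested probes. Among the 1139 probes called with weights the share was 68.8%. No test was made of these shares, since the probes were chosen for a large gap between the responses. At *Cplane1* the response was 0.01 in PPARaWT, 0.06 in PPARaLKO and −2.83 in PPARaKO. *Ntf3* gave 0.12, 0.23 and 1.69 in the same order. Exceptions included *Pltp*, with −0.06 in PPARaWT against −1.81 in PPARaLKO and 0.60 in PPARaKO, and *Amacr*, with 0.17 against 1.03 and −0.44.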

How the data were processed

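RNA from 48 mouse livers was labelled with Cy3 and hybridised to one-colour Agilent arrays, one array per mouse. The authors deposited the scanner output of Agilent Feature Extraction 10.10.1.1, in which each spot has a median intensity that is not yet normalized, and their own matrix of log2 values after filtering, a correction for the washing bath and quantile normalization in Bioconductor. Probe positions in the scanner output are on mm9. Per the labels the arrays were washed in 2 batches, and groups had 4 mice in each, except PPARaLKO CTRL (3 and 5) and PPARaLKO HFD (5 and 3). They lay on 6 slides and were scanned on 1 day.

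Median intensities were taken as log2 and quantile normalized here, control spots were dropped, and a probe was kept where 4 or more of the 8 arrays in any group read it well above background. A model with the 6 groups and wash batch was fitted with limma 3.58.1 in R 4.3.3 with array weights, and the interaction was tested two-sided by a moderated test with Benjamini-Hochberg adjustment over 33323 probes. All 48 arrays shared one estimate of the spread, and the number of arrays limits the precision. Spots marked as outliers left 195 missing values. Files were read with the R package data.table (1.17.8). The steps were tested on simulated data.

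Probes took gene symbols from RefSeq (22293 probes matched by accession) or kept the file's name, and 5006 had none. A gene was read by its tested probe of highest mean signal. Named were *Ppara*, the 12 genes with the largest positive and the 12 with the largest negative difference among those called with and without array weights, list members called in both fits, and 9 genes that the text of the study names. Results for a few genes are not reported here. The 22 gene lists, the 11 marker lists and the genes to describe were chosen with earlier results of these data known. The alternatives were no weights, the 32 arrays alone, other treatments of the wash batch, normexp background correction, processed signal scaled to its 75th percentile, the deposited log2 values, other filters, a replicate block, a threshold of 0.01, robust moderation and each array left out. Leaving out the 2 arrays of lowest weight was added after seeing the data. Promoter windows came from RefSeq (GRCm38.p6).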

Additional observations from a re-analysis of the deposited data

Results flagged for a closer look

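Single mice stood far from their group in 20 of 140 pairs of a named gene and a group of 8 mice, where the gap to the nearest mouse, as a share of the group's range, exceeded Dixon's 95% critical value. Chance gives such a mouse in about 1 of 20 groups. PPARaLKO CTRL replicate 1, the array of lowest weight, was the far mouse in 8 pairs, with log2 signals of 13.3 for *Ppara*, 14.4 for *Amacr*, 12.4 for *Aen*, 7.42 for *Rbm24*, 5.12 for *Gbp2b*, 7.56 for *Ntf3*, 10.8 for *Acot2* and 9.61 for *Fgf21*. PPARaKO CTRL replicate 3 was far in 4, with 11.1 for *Pdzk1ip1*, 7.26 for *Prr36*, 7.43 for *Cyp4a14* and 10.2 for *Acot2*. The others were PPARaKO HFD replicate 1 with 11.6 for *Cplane1* and 10.5 for *Dntt*, PPARaKO CTRL replicate 1 with 18.2 for *Mup20*, and PPARaLKO HFD replicate 5 with 11.1 for *Ccm2l* and 9.64 for *Calml4*. PPARaKO CTRL replicate 2 read 6.05 for *Rbm24* and 7.45 for *Vnn1*, and PPARaKO HFD replicate 6 read 7.58 for *Prr36*.

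The diet response differed between the deletion genotypes, by the interaction itself in limma, at 25 named genes, all of which lie in the report. Higher in PPARaLKO were *Cyp2b9* (6.08), *Cyp2b13* (3.60), *Cplane1* (2.88), *Scd1* (2.31), *Mup-ps12* (1.75), *Ddias* (1.57), *Amacr* (1.47), *Mup6* (1.44), *Aen* (1.25), *4933404I11Rik* (1.16), *Mup20* (0.98) and *Ccm2l* (0.95), in log2 units. Lower in PPARaLKO were *Pltp* (−2.41), *Cyp39a1* (−2.26), *Rbm24* (−2.04), *Gbp2b* (−1.70), *Pdzk1ip1* (−1.65), *Calml4* (−1.59), *Ddah1* (−1.55), *Dntt* (−1.52), *G6pdx* (−1.48), *Ntf3* (−1.47), *Rims4* (−1.27), *Prr36* (−1.25) and *Elovl2* (−0.75).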

How the results depend on the processing

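The number of probes with a different diet response was 1139 and stayed within 1.5 times of it under 10 of 16 alternatives. It was 110 without array weights, 21 within wash batch 1, 149 within wash batch 2, 399 without a filter on dim probes and 329 at an adjusted p no higher than 0.01. It was 259 with the 2 arrays of lowest weight left out and no weights, an alternative chosen after seeing the data. Each wash batch holds 3 to 5 mice a group, and the filter changes how many probes are tested; for the weights the cause was not tested. With 1 array left out at a time the number ran from 550 to 1408, and all of the 110 probes called in both fits were called, apart from 1 without PPARaLKO HFD replicate 6. The 25 called named genes kept their direction under every alternative that could be run and were called with every single array left out. They lost the call within wash batch 1 (20 genes) or 2 (6 genes), and *Scd1* also without weights and the 2 arrays. Uncalled genes that changed sign were *Col1a1* (−0.64) and *Fitm1* (−0.0187) within wash batch 1, *Fitm1* with slide as the block (−0.0243), and *Ppara* with normexp (−0.00847). With the scaled processed signal *Cyp4a14* (−0.24), *Ppara* (−0.0528) and *Vnn1* (−0.42) did. With 1 array left out *Fitm1* ran from −0.114 to 0.330 and *Ppara* from −0.0180 to 0.0354. *4933404I11Rik* had values under 15 of the 16 alternatives.

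With the replicate number as a block 928 probes were called, 855 of them among the 1139, and 3 of the 24 cholesterol genes. The numbers only name the mice: the 48 pairs of arrays with the same number correlated between −0.28 and 0.33 in their deviations from the group means (mean 0.01), and 13 were over 0.1.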
